A study of Danio rerio with 24 samples.

Results

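Zebrafish (Danio rerio) embryos cover themselves with skin-forming tissue within hours of fertilization, and 6 genes of that programme were followed here through the onset of zygotic transcription. The genes were klf17 (ENSDARG00000038792), foxi1 (ENSDARG00000104566), grhl3 (ENSDARG00000078552), ovol1a (ENSDARG00000076472), irx7 (ENSDARG00000002601) and vgll4l (ENSDARG00000068409). They were taken by gene identifier from 32520 genes counted in each library as a set linked to the epidermis and the enveloping layer. All 6 identifiers were found in all 24 libraries, and all 6 genes passed the filter on low counts that left 11238 genes for testing.

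The embryos were wild type (TLAB) and were collected at 3 or 4 hours post fertilization (hpf). Untreated embryos in plain E3 medium were compared with embryos given 1 µM oligomycin, an inhibitor of the mitochondrial ATP synthase, and with embryos given 10 µg/ml actinomycin D, a blocker of transcription. The protocol puts both inhibitors into the medium from laying onward, whereas the series design mentions injection of actinomycin D, so the route of that drug is uncertain. There were 4 libraries in each of the 6 groups, and nothing in the labels says whether these came from separate clutches, so p-values measure the spread between libraries only. The design asks whether embryos switch on zygotic genes when oligomycin is present, with actinomycin D as the control without zygotic transcription.

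Before its own genome becomes active, the fish embryo runs on RNA laid down by the mother. Soon after activation the outermost cells of the blastoderm become the enveloping layer, a flat keratin-rich epithelium that seals the embryo, while ventral ectoderm beneath it is steered by BMP signalling towards epidermis. Grhl3 is a Grainyhead-like factor of surface epithelia, Klf17 a Krüppel-like zinc finger factor, Ovol1a an OVO-like zinc finger factor, Foxi1 a forkhead factor of non-neural ectoderm and Irx7 an Iroquois homeodomain factor. Vgll4l belongs to the vestigial-like family, whose members bind TEAD proteins and have no DNA-binding domain of their own, so it is a cofactor and not a transcription factor in the strict sense.

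Library totals ran from 1453642 to 3431533 counts, with a median of 2675171. Levels are CPM, the count of a gene relative to the TMM-adjusted size of its library, in the order of replicates 1 to 4. A gene was called at a Benjamini-Hochberg adjusted p under 0.05 in edgeR's quasi-likelihood fit to all genes tested. Replicates 1 and 2 came from one series of library numbers and replicates 3 and 4 from another; what the series mark is not stated. Replicate 4 of actinomycin D at 4 hpf stood apart, with 77 counts of klf17, grhl3, irx7 and vgll4l together against 2 to 3 in each of the other 3 libraries of its group. Markers of other tissues were higher in it as well, with 50.9 CPM summed over mesendoderm markers against 11.2 to 11.99, 21.4 CPM over neural markers against 0.466 to 1.55 and 16.1 CPM over yolk syncytial layer markers against 2.08 to 3.09. RNA came from whole embryos, so fewer cells of a type and less RNA per cell cannot be told apart, and no value here places a transcript in a cell layer.

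**Figure D1:**
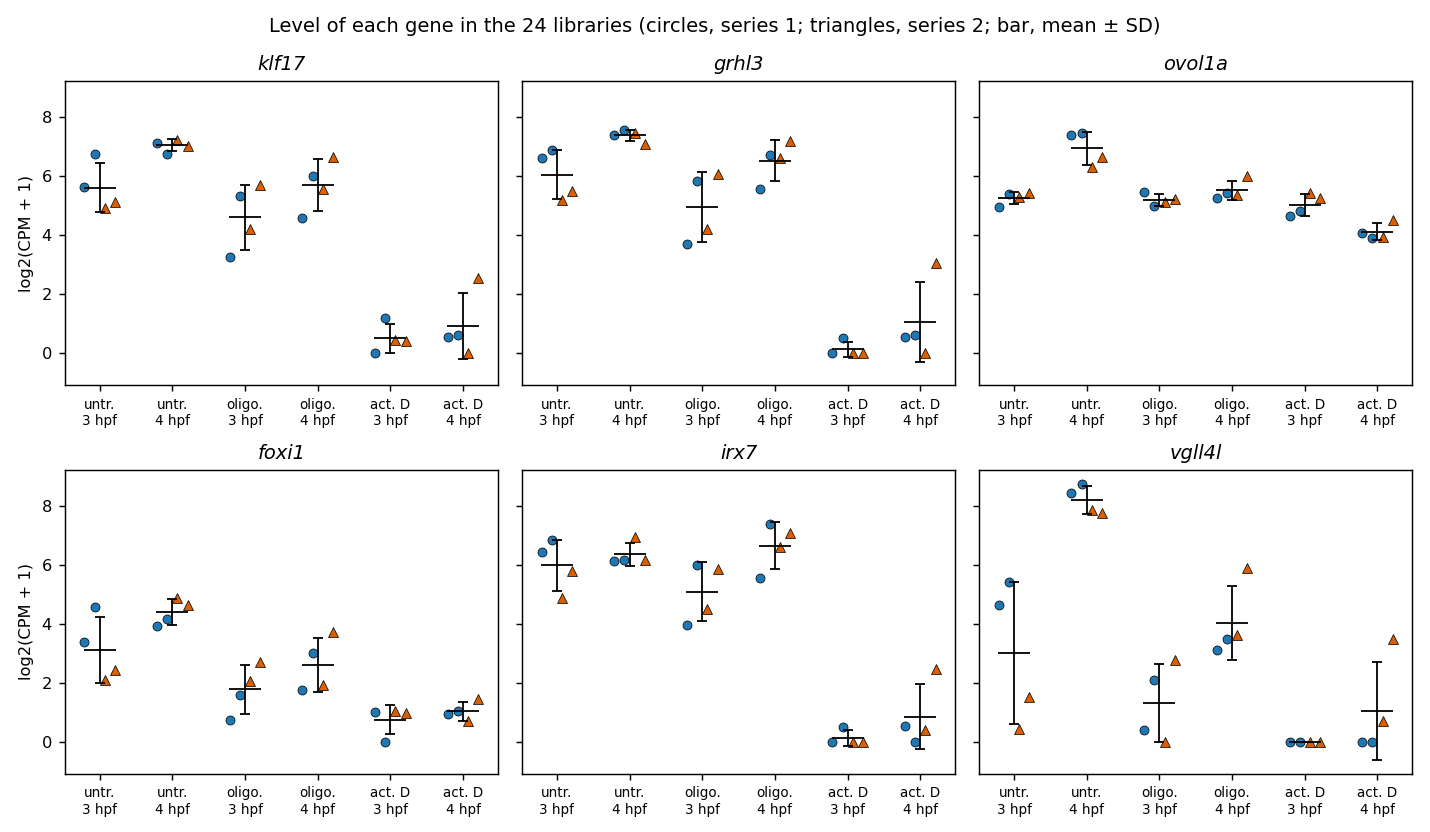
Level of each gene, as log2 of CPM plus 1 on the vertical axis, in each of the 24 libraries, with 1 panel per gene, the 6 groups along the horizontal axis, points for libraries (circles, series 1; triangles, series 2) and bars for the mean ± SD. Klf17, foxi1, grhl3, irx7 and vgll4l lay near 0 in actinomycin D, with replicate 4 above the others at 4 hpf, whereas ovol1a kept a level of 32.4 CPM there at 3 hpf.

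In untreated embryos, ovol1a and vgll4l rose between 3 and 4 hpf. The cofactor gene vgll4l went furthest, from 24.1, 41.5, 0.360 and 1.87 CPM at 3 hpf to 349.8, 432.0, 229.2 and 214.7 CPM at 4 hpf. Every 4 hpf library was far above every 3 hpf library, and at 3 hpf the first series held nearly all of the signal. The mean increased 18.1-fold (11.9-fold in series 1 and 199-fold in series 2, and 34.9-fold without untreated 3 hpf replicate 2), and the fitted change was 4.21 ± 0.91 on the log2 scale (SE, n = 4 per group, edgeR adjusted p = 0.00276). Levels of ovol1a at 3 hpf were 30.4, 40.7, 38.5 and 41.7 CPM, the tightest of the 6 genes at that time, and at 4 hpf they were 166.3, 173.7, 79.1 and 98.6 CPM. The ovol1a groups did not overlap, the mean increased 3.42-fold and the change was 1.76 ± 0.23 (log2, SE; edgeR adjusted p = 1.11e-05). Both were called in each series alone as well.

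The other 4 genes, like ovol1a, were present in every untreated library at 3 hpf, but they were not called between the times. Grhl3 measured 97.7, 116.2, 35.99 and 44.5 CPM at 3 hpf and 168.0, 187.5, 175.5 and 135.9 CPM at 4 hpf. Klf17 measured 49.1, 107.5, 29.1 and 34.3 CPM at 3 hpf and 139.9, 107.9, 150.1 and 130.1 CPM at 4 hpf. For both genes all 4 hpf libraries lay above all 3 hpf libraries, though for klf17 by a margin of under 1 CPM. The share of all genes tested without overlap between these times is not given here, so this is a description. The same holds for the vgll4l and ovol1a groups above. The log2 changes were 1.18 ± 0.50 for grhl3 (edgeR adjusted p = 0.0875) and 1.27 ± 0.50 for klf17 (edgeR adjusted p = 0.0671). With the library set as a replicate block, both passed, at edgeR adjusted p = 0.0411 for grhl3 and 0.0186 for klf17.

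The forkhead gene foxi1 was low throughout, at 9.35, 22.9, 3.24 and 4.36 CPM at 3 hpf and 14.3, 16.9, 28.3 and 23.97 CPM at 4 hpf. Its groups overlapped through replicate 2 at 3 hpf, and its log2 change was 1.09 ± 0.52 (edgeR adjusted p = 0.124). In the second series alone it was called (2.72, edgeR adjusted p = 0.00870), and in the first the change was -0.06. The Iroquois gene irx7 gave 85.3, 113.5, 28.4 and 53.9 CPM at 3 hpf and 70.0, 70.9, 121.4 and 70.9 CPM at 4 hpf. Here the libraries of both times were interleaved and the log2 change was 0.25 ± 0.48 (edgeR adjusted p = 0.743).

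Thus 2 of the 6 genes were called between 3 and 4 hpf in untreated embryos, both higher, where 27.4% of all genes tested were called and 12.8% were called higher. The count reached 4 with the block, and also without untreated 3 hpf replicate 2, where foxi1 (log2 change 1.87, edgeR adjusted p = 0.00862) and klf17 (1.79, edgeR adjusted p = 0.0150) passed.

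Actinomycin D embryos were the study's control for blocked transcription. At 4 hpf all 6 genes were lower than in untreated embryos, against 11.5% of all genes called and 7.12% called lower. Klf17 measured 0.466, 0.521, 0 and 4.91 CPM in these embryos, grhl3 0.466, 0.521, 0 and 7.37 CPM, and irx7 0.466, 0, 0.310 and 4.56 CPM. Replicate 4 was the highest each time, and still lay far below every untreated library. The log2 differences were -6.35 ± 0.77 for klf17 (edgeR adjusted p = 7.63e-06), -6.18 ± 0.74 for grhl3 (edgeR adjusted p = 7.63e-06) and -5.79 ± 0.75 for irx7 (edgeR adjusted p = 1.28e-05). Without replicate 4, each of these genes had 2 counts left in actinomycin D at 4 hpf, and the ratios of pooled counts were 490.4-fold for klf17 (95% counting interval 135 to 4054), 597-fold for grhl3 (165 to 4931) and 310.1-fold for irx7 (85.6 to 2565).

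For vgll4l, 2 actinomycin D libraries at 4 hpf had no count, replicate 3 had 0.619 CPM and replicate 4 had 10.2 CPM. The difference from untreated embryos was -6.65 ± 1.13 on the log2 scale (edgeR adjusted p = 0.000493), and without replicate 4 the ratio was 1050.0-fold (95% counting interval 290.4 to 8674). Foxi1 measured 0.933, 1.04, 0.619 and 1.75 CPM, with a difference of -4.22 ± 0.69 (edgeR adjusted p = 9.38e-05). The 4 foxi1 libraries were close to each other, and the lowest untreated library lay at 14.3 CPM. All 6 calls held in the first series alone and without any 1 library. In the second series, 5 of 6 were called and vgll4l was not (-5.40, edgeR adjusted p = 0.0682).

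Ovol1a stood out for what remained under actinomycin D. At 3 hpf it measured 23.9, 26.9, 41.6 and 37.2 CPM in actinomycin D against 30.4 to 41.7 CPM in untreated libraries. The groups overlapped, and the log2 difference was -0.21 ± 0.24 (edgeR adjusted p = 1). Between 3 and 4 hpf it fell to 15.9, 14.1, 14.2 and 22.1 CPM, below every 3 hpf library, a change of -0.97 ± 0.25 (log2, SE; edgeR adjusted p = 0.0146). No other of the 6 genes was called by edgeR between the times in actinomycin D, where 10.9% of all genes were called and 7.7% were called lower. DESeq2 also called grhl3, irx7 and vgll4l, as higher at 4 hpf (adjusted p = 0.0136, 0.0339 and 0.0237), which at 4 hpf had most of their counts in replicate 4. The ovol1a call was lost without actinomycin D 3 hpf replicate 3 (edgeR adjusted p = 0.0679) or replicate 4 (edgeR adjusted p = 0.0570), and in the first series alone (-0.76, edgeR adjusted p = 0.154).

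At 4 hpf the actinomycin D level of ovol1a was -2.95 ± 0.25 from untreated on the log2 scale (edgeR adjusted p = 3.59e-08). The inhibitor's effect therefore differed between the times, by -2.73 ± 0.34 (interaction in edgeR, adjusted p = 8.77e-05). Among the 6 genes ovol1a was the sole call for this interaction, where 1.73% of all genes were called and 1.01% were called with a lower value.

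The other 5 genes were near 0 in actinomycin D at 3 hpf, too. Vgll4l had no count in any of the 4 libraries, and grhl3 and irx7 had 1 count each, both in replicate 2. Klf17 measured 0, 1.28, 0.350 and 0.321 CPM and foxi1 0.997, 0, 1.05 and 0.962 CPM. These genes were thus at or below 1.28 CPM in every actinomycin D library at 3 hpf, while untreated levels at that time reached 116.2 CPM for grhl3.

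By the test, 4 of the 6 genes were lower in actinomycin D at 3 hpf, where 0.427% of all genes were called and 0.409% were called lower. Grhl3 was 734-fold lower by the ratio of pooled counts (95% counting interval 131 to 29019.6; edgeR adjusted p = 0.000457) and irx7 706-fold lower (126 to 27916; edgeR adjusted p = 0.000299). These intervals cover counting error only. Klf17 differed by -6.68 ± 0.94 (log2, SE; edgeR adjusted p = 0.000891) and foxi1 by -3.59 ± 0.75 (edgeR adjusted p = 0.0273). Vgll4l was at least 54.0-fold lower, taking 3 counts over the group as the floor, and was not called (edgeR adjusted p = 0.391), while DESeq2 called it (adjusted p = 0.000973). The vgll4l call was also made in the first series alone (edgeR adjusted p = 0.0234), where the untreated libraries held 24.1 and 41.5 CPM.

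The foxi1 call was the least stable of the 4. It was lost with the replicate block (edgeR adjusted p = 0.0759), without untreated 3 hpf replicate 1 (0.0611) or replicate 2 (0.190), and without actinomycin D 3 hpf replicates 1, 2, 3 or 4 (edgeR adjusted p = 0.0915, 0.141, 0.111 and 0.133). No gene but vgll4l was called in the first series alone, and none in the second.

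Oligomycin embryos at 4 hpf had less vgll4l, ovol1a and foxi1 RNA than untreated embryos of that age. Vgll4l showed the widest gap, with 7.62, 10.2, 11.3 and 58.5 CPM against 214.7 to 432.0 CPM in untreated libraries. Replicate 4 was the highest with oligomycin and still lay far below every untreated library. The oligomycin mean was 7.15% of the untreated mean, a 14.0-fold difference, and the fitted difference was -3.73 ± 0.88 (log2, SE; edgeR adjusted p = 0.00671). The share was 2.28% in series 1 and 15.7% in series 2, where the call was lost (-2.61, edgeR adjusted p = 0.317).

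Ovol1a measured 37.7, 42.4, 40.6 and 63.0 CPM with oligomycin at 4 hpf, below each untreated library. Its mean was 35.5% of the untreated one and the difference was -1.48 ± 0.23 (log2, SE; edgeR adjusted p = 9.15e-05). Most of this gap was in the first series, at 23.6% of untreated, whereas the second series stood at 58.3% and was not called alone (-0.73, edgeR adjusted p = 0.176). The series differed on the untreated side, with 166.3 and 173.7 CPM in the first and 79.1 and 98.6 CPM in the second.

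Foxi1 measured 2.41, 6.98, 2.82 and 12.3 CPM, also without overlap with the untreated 14.3 to 28.3 CPM. The mean was 29.4% of untreated, with 30.1% and 28.9% in the series, and the difference was -1.75 ± 0.54 (log2, SE; edgeR adjusted p = 0.0234). The foxi1 call was lost without oligomycin 4 hpf replicate 1 (edgeR adjusted p = 0.0863) or replicate 3 (0.0825), without untreated 4 hpf replicate 3 (edgeR adjusted p = 0.0601), with no filter on low counts (0.0762) and in each series alone (edgeR adjusted p = 0.0782 and 0.136).

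Klf17 gave 22.9, 63.3, 46.2 and 100.6 CPM with oligomycin at 4 hpf. All 4 libraries were below all untreated ones, which began at 107.9 CPM, and the mean was 44.1% of untreated. The difference of -1.17 ± 0.50 (log2, SE) did not pass (edgeR adjusted p = 0.101), but did so without oligomycin 4 hpf replicate 4 (-1.59, edgeR adjusted p = 0.0386).

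For grhl3 and irx7 the oligomycin and untreated libraries overlapped at 4 hpf. Grhl3 gave 46.1, 104.2, 97.7 and 146.2 CPM, 59.1% of the untreated mean, with a difference of -0.75 ± 0.49 (log2, SE; edgeR adjusted p = 0.298). Replicate 4 lay above the lowest untreated library of 135.9 CPM, and the other 3 lay below it. Irx7 gave 46.1, 165.9, 95.9 and 135.1 CPM, 133.0% of the untreated mean, and its difference was 0.40 ± 0.47 (edgeR adjusted p = 0.590). Replicates 2 and 4 exceeded every untreated irx7 library, and replicate 1 was below all of them. The standard error of the irx7 difference exceeded the difference itself.

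In sum, 3 of the 6 genes were lower with oligomycin at 4 hpf and none was higher, where 21.4% of all genes were called and 9.05% were called lower. In 4 of the 6 genes the libraries of the groups did not overlap, as in 22.5% of all genes tested. In the second series alone no member was called, and 164 of all genes were called there against 2400 with all libraries.

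**Figure D2:**
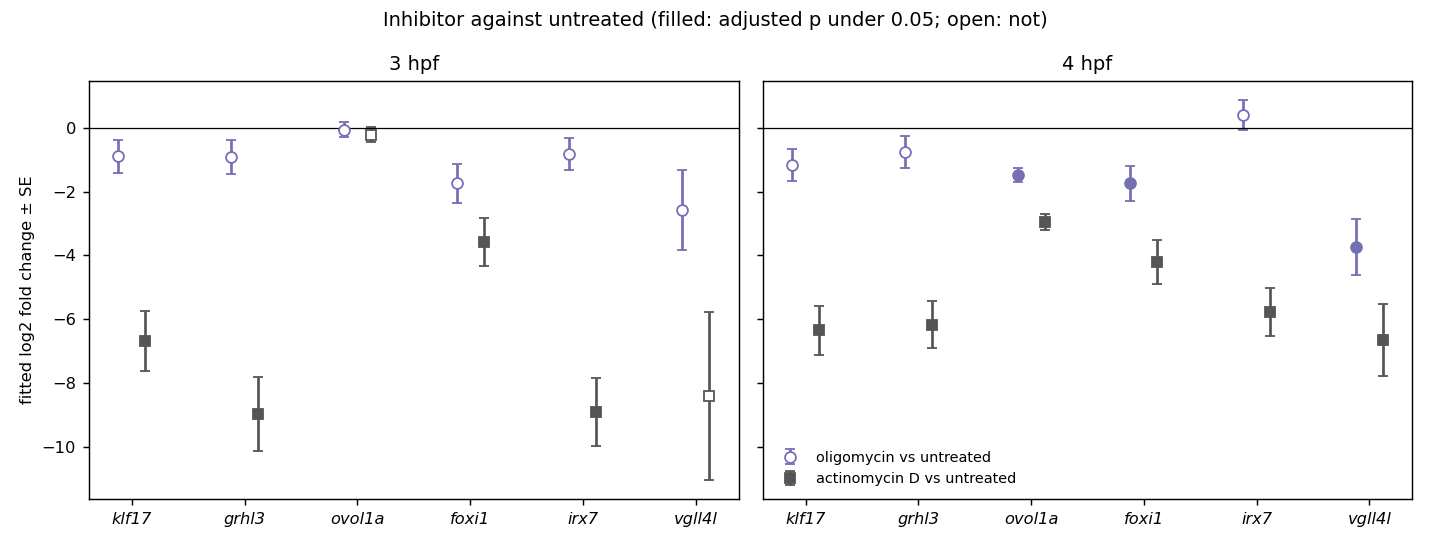
Fitted log2 difference from untreated embryos with its standard error, for each gene under oligomycin and actinomycin D, at 3 hpf and at 4 hpf; filled symbols were called at an adjusted p under 0.05. At 4 hpf actinomycin D put all 6 genes lower, from -2.95 for ovol1a to -6.65 for vgll4l, while oligomycin ranged from 0.40 for irx7 to -3.73 for vgll4l; fitted values of genes with 0 or 1 count in a group depend on the prior count.

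At 3 hpf no gene was called between oligomycin and untreated embryos, among the 6 or among all 11238 (0% called by edgeR, with 486 genes at an unadjusted p under 0.05, foxi1 among them, and no member called by DESeq2). Grhl3 gave 12.1, 56.5, 17.3 and 65.8 CPM with oligomycin, klf17 gave 8.53, 38.7, 17.3 and 50.5 CPM, and irx7 gave 14.8, 62.9, 21.8 and 57.0 CPM. In each, replicates 2 and 4 were high and replicates 1 and 3 low, and the means were 51.5%, 52.3% and 55.7% of untreated. The log2 differences were -0.92, -0.90 and -0.82, each with an edgeR adjusted p of 1.

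The series disagreed on these 3 hpf values. In the first series grhl3 stood at 32.1% of untreated, klf17 at 30.2% and irx7 at 39.1%, and in the second at 103.2%, 107.0% and 95.7%. Foxi1 with oligomycin measured 0.656, 2.02, 3.21 and 5.58 CPM, which was 8.28% of untreated in series 1 and 115.7% in series 2. Vgll4l measured 0.328, 3.23, 0 and 5.87 CPM, again low against the untreated 24.1 and 41.5 CPM of the first series and not against 0.360 and 1.87 CPM in the second. What moved was mainly the untreated 3 hpf level, which for the 5 genes other than ovol1a was higher in both libraries of the first series than in either of the second. For foxi1 both sides moved, with means in series 1 and 2 of 16.1 and 3.80 CPM untreated and 1.34 and 4.40 CPM with oligomycin. The part of the library series in these differences was not tested.

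Ovol1a was the exception again. It measured 42.6, 30.7, 34.0 and 36.7 CPM with oligomycin at 3 hpf, 95.2% of untreated, with a log2 difference of -0.07 (edgeR adjusted p = 1). The oligomycin effect on ovol1a thus differed between 3 and 4 hpf by -1.41 ± 0.32 (log2, interaction in edgeR, adjusted p = 0.0369), the one interaction called among the 6 genes, where 1.02% of all genes were called and 0.214% with a lower value. That call was lost in 10 of the 24 fits with 1 library left out (edgeR adjusted p up to 0.115), in the second series alone and when only the 4 groups compared were fitted.

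**Figure D3:**
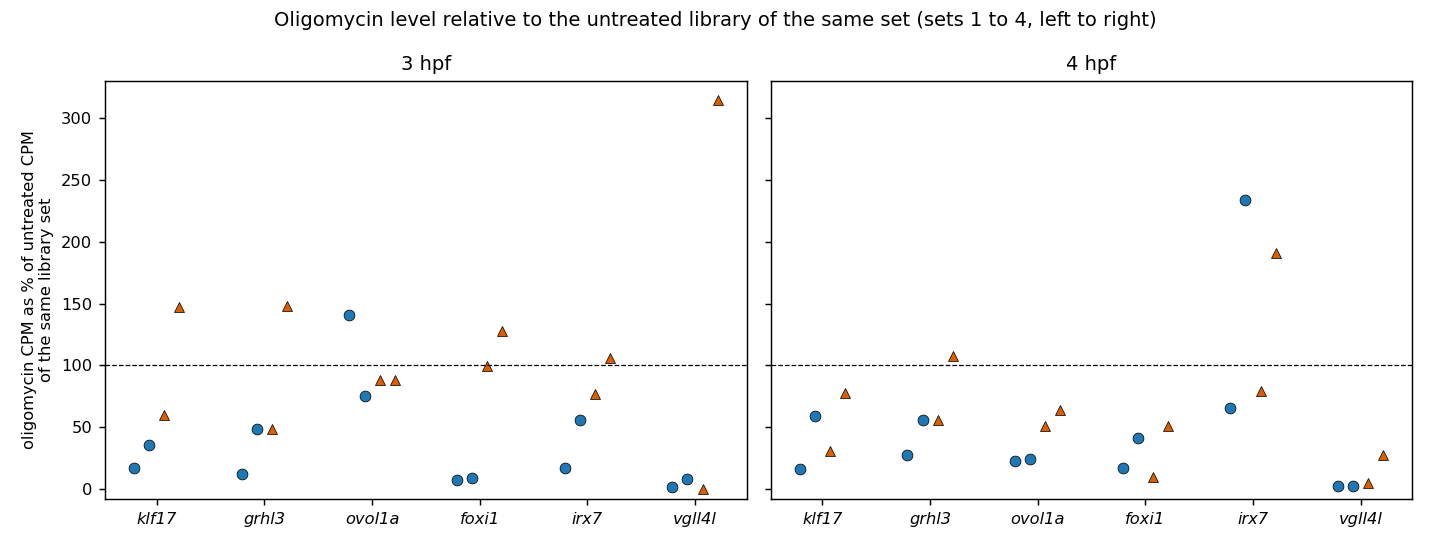
Oligomycin level of each gene as a percentage of the untreated library with the same replicate number, at 3 hpf and at 4 hpf, on a linear axis. At 4 hpf vgll4l lay between 2.18% and 27.3% in the 4 sets and irx7 between 65.9% and 234.1%, with set 4 the highest for 5 of the 6 genes.

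Set side by side by replicate number, the 4 hpf shares of vgll4l were 2.18%, 2.36%, 4.92% and 27.3% of the untreated library. Those of grhl3 were 27.5%, 55.5%, 55.7% and 107.6%, and those of ovol1a 22.7%, 24.4%, 51.3% and 63.9%. Set 4 had the highest share for every gene but irx7, for which set 2 led with 234.1% over 190.6%. The numbers were not read as pairing oligomycin with untreated libraries, so these shares are a description.

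Within oligomycin embryos, no gene of the 6 was called between 3 and 4 hpf (smallest edgeR adjusted p = 0.277), nor by DESeq2, where edgeR called 0.516% of all genes. The largest fitted change was that of vgll4l, at 3.07 on the log2 scale, from a mean of 2.36 ± 2.76 CPM (SD, n = 4) to 21.9 ± 24.5 CPM. Irx7 had a change of 1.48 and grhl3 1.35, and ovol1a had 0.35, from 36.01 ± 5.07 to 45.9 ± 11.6 CPM. Of the 6, only the vgll4l groups did not overlap, against 3.89% of all genes tested.

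Embryos with oligomycin at 4 hpf were also set against untreated embryos 1 hour younger. None of the 6 genes was called (edgeR adjusted p = 1 for each, and none by DESeq2), where 0.116% of all genes were called, all of them higher. The log2 differences were 0.10 for klf17, -0.65 for foxi1, 0.43 for grhl3, 0.29 for ovol1a, 0.66 for irx7 and 0.48 for vgll4l, and the libraries overlapped for each of the 6 genes, while 1.8% of all genes tested did not overlap. The series went opposite ways for 4 genes. In series 1 oligomycin means were 27.1% of untreated 3 hpf for vgll4l, 29.1% for foxi1, 55.0% for klf17 and 70.2% for grhl3. In series 2 they were 3134%, from an untreated vgll4l mean of 1.11 CPM, 199.1%, 231.5% and 302.9%. Irx7 (106.7% and 280.7%) and ovol1a (112.7% and 129.1%) were above untreated in both. The part of the series was not tested. This comparison and that with untreated embryos at 4 hpf share their oligomycin libraries.

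Set against actinomycin D at 4 hpf, oligomycin embryos had more of 5 of the 6 transcripts, where 11.9% of all genes were called and 9.79% were called higher. The differences were 6.19 ± 0.74 for irx7 (edgeR adjusted p = 3.58e-05), 5.43 ± 0.75 for grhl3 (edgeR adjusted p = 0.000163) and 5.18 ± 0.78 for klf17 (edgeR adjusted p = 0.000333) on the log2 scale. Ovol1a was higher by 1.47 ± 0.25 (edgeR adjusted p = 0.000450) and foxi1 by 2.47 ± 0.74 (edgeR adjusted p = 0.0310). Vgll4l was not called (2.92 ± 1.20, edgeR adjusted p = 0.133), and its libraries overlapped, since actinomycin D replicate 4 at 10.2 CPM lay above oligomycin replicate 1 at 7.62 CPM. Without that actinomycin D library the vgll4l difference was 6.16 and passed (edgeR adjusted p = 0.0496). Irx7 was then 397-fold higher by pooled counts (95% counting interval 109.7 to 3284), grhl3 372-fold (103 to 3075) and klf17 222-fold (61.3 to 1839), each from 2 actinomycin D counts. The foxi1 call was lost without actinomycin D 4 hpf replicate 1, 2 or 3 (edgeR adjusted p = 0.0766, 0.0717 and 0.0898), without oligomycin 4 hpf replicate 2 or 4 (0.0545 and 0.146) and with no filter (edgeR adjusted p = 0.0886).

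At 3 hpf, 3 of the 6 genes were already higher with oligomycin than with actinomycin D, where 0.151% of all genes were called and 0.133% were called higher. Irx7 was 422-fold higher by pooled counts (95% counting interval 75.4 to 16716; edgeR adjusted p = 0.00175) and grhl3 421-fold (75.2 to 16678; edgeR adjusted p = 0.00404). Klf17 was higher by 5.78 ± 0.99 on the log2 scale (edgeR adjusted p = 0.0129). Vgll4l was at least 9.51-fold higher, from 29 counts in oligomycin against none, and was not called (edgeR adjusted p = 1). Leaving out 1 library removed the klf17 call for actinomycin D 3 hpf replicates 1 to 4 (edgeR adjusted p = 0.0545, 0.0518, 0.0750 and 0.0836) and oligomycin 3 hpf replicate 4 (0.0538), and the grhl3 call for actinomycin D 3 hpf replicate 2 (edgeR adjusted p = 0.0518). No member was called in either series alone.

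The balance among the 6 transcripts was described by counts relative to grhl3, without a test. No such ratio was taken for genes outside the 6. In CPM, 22.5% of all genes tested did not overlap between oligomycin and untreated embryos at 4 hpf. Grhl3 itself was then at 59.1% of its untreated mean with oligomycin. Per 100 counts of grhl3 in the same library, vgll4l had 130.6 to 230.4 counts in untreated embryos at 4 hpf (median 183.1) and 9.79 to 40.0 (median 14.0) in oligomycin embryos of the same age. At 3 hpf it had 1.00 to 35.7 (median 14.4) in untreated and 0 to 8.93 (median 4.21) in oligomycin embryos. The untreated 4 hpf libraries thus stood apart from all the other 12 in this ratio. But for 1, at 40.0, the oligomycin 4 hpf libraries lay in the untreated 3 hpf range, though only with the series pooled. In series 1 the oligomycin 4 hpf libraries, at 16.5 and 9.79, lay below both untreated 3 hpf libraries. In series 2, at 11.6 and 40.0, they lay above both. The part of the series was not tested.

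Irx7 turned the other way relative to grhl3. Its own untreated mean over all 4 libraries did not fall, at 70.3 CPM at 3 hpf and 83.3 CPM at 4 hpf, while that of grhl3 went from 73.6 to 166.7 CPM. The series differed for irx7, whose 4 hpf mean was 70.9% of its 3 hpf mean in series 1 and 233.6% in series 2. For grhl3 these shares were 166.1% and 386.8%. The part of the series was not tested. Irx7 had 79.0 to 121.0 counts per 100 grhl3 counts in untreated embryos at 3 hpf and 37.8 to 69.2 at 4 hpf, without overlap. In oligomycin embryos it had 86.6 to 125.9 at 3 hpf and 92.4 to 159.3 at 4 hpf. At 4 hpf every oligomycin library was above every untreated one in this ratio. Klf17 had 50.2 to 92.5, 57.5 to 95.7, 68.6 to 100 and 47.3 to 68.8 in untreated 3 hpf, untreated 4 hpf, oligomycin 3 hpf and oligomycin 4 hpf embryos, with overlap between all of these groups. At 4 hpf foxi1, on low counts, had 8.48 to 17.6 in untreated and 2.89 to 8.42 in oligomycin embryos. Ovol1a had 45.1 to 99.0 and 40.7 to 81.7, with overlap. These ratios are within a library and do not depend on the scaling between libraries.

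**Figure D4:**
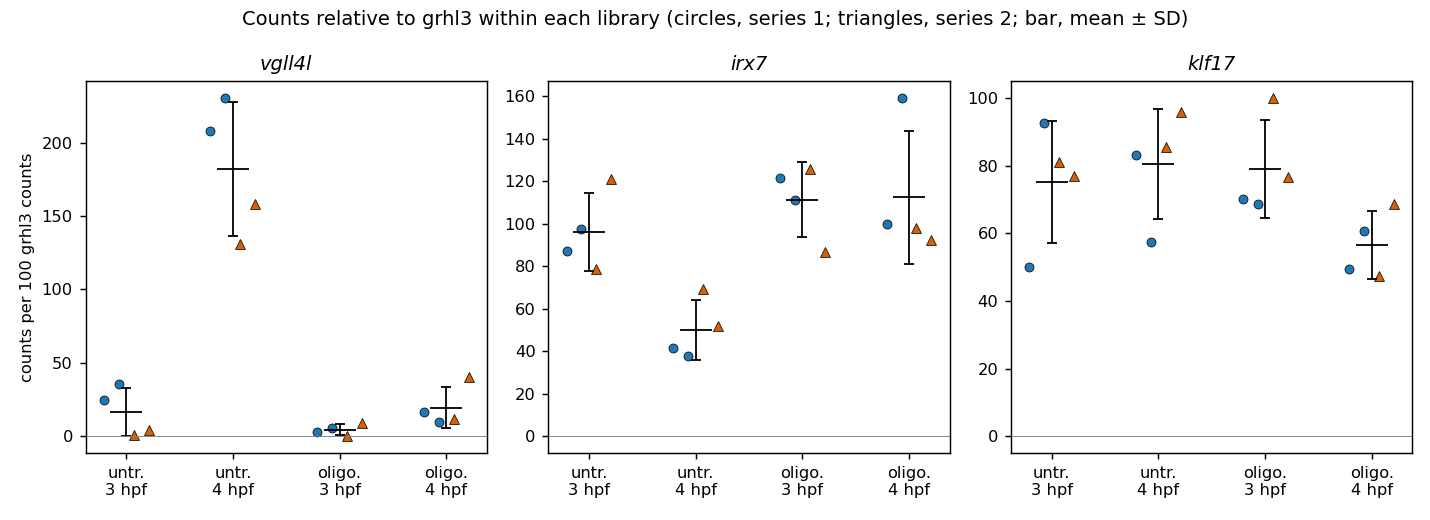
Counts of vgll4l, irx7 and klf17 per 100 counts of grhl3 in the same library, with 1 point per library (circles, series 1; triangles, series 2) and bars for the mean ± SD, for untreated and oligomycin embryos at 3 and 4 hpf. Vgll4l reached 130.6 or more in untreated 4 hpf libraries and at most 40.0 in all others, whereas irx7 was lowest in untreated 4 hpf libraries, at 37.8 to 69.2.

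Across the 24 libraries, log2 CPM of klf17, grhl3 and irx7 followed each other closely, with a Pearson r of 0.992 for klf17 and grhl3, 0.986 for grhl3 and irx7 and 0.975 for klf17 and irx7. Much of this is the step from actinomycin D to the other groups, which these libraries share. Within the 16 untreated and oligomycin libraries, deviations from the group means still had r = 0.933, 0.922 and 0.907 for the same pairs. Ovol1a deviations had r between -0.170 and 0.172 with those of the other 5 genes. Foxi1 and vgll4l deviations followed the first 3 genes and each other too, with r from 0.732 (foxi1 and grhl3) to 0.860 (grhl3 and vgll4l). The variation within groups was thus shared by 5 of the 6 genes, without ovol1a. These deviations include differences between the series. In untreated embryos at 3 hpf, for example, series means were 107.0 and 40.3 CPM for grhl3 and 32.8 and 1.11 CPM for vgll4l. The part of the series was not tested, and the r of deviations of genes outside the 6 is not given here.

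Among the genes tested outside the 6, the pattern most like that of klf17, grhl3 and irx7 was mxtx2 (r = 0.976, 0.989 and 0.983 over 24 libraries). Mxtx2 is a homeobox gene and is in the list of yolk syncytial layer markers used here, so this pattern was not particular to the 6 genes. Nearest to vgll4l were fgfr4, a fibroblast growth factor receptor (r = 0.990), si:ch211-155k24.9 (0.982) and cldne, a claudin of tight junctions (0.980). Nearest to ovol1a were tdgf1, a Nodal co-receptor (r = 0.925), nav2b (0.923) and si:ch211-152p11.8 (0.912). Nearest to foxi1 were nnr (0.943), CNR2 (0.943) and znf1126 (0.941). The third neighbour of irx7 was dre-mir-430b-17 (0.980), a microRNA gene of near-identical copies whose counts are uncertain.

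Gene lists of the same tissues were read next. In any list, a gene with few counts elsewhere could pass the low-count filter through untreated 4 hpf libraries alone. For such a gene, a rise in untreated embryos and a lower level with an inhibitor at 4 hpf were fixed beforehand. The structural gene krt92, for example, had no count in untreated embryos at 3 hpf. List counts and medians beside those of all genes are therefore descriptions. Of 39 names of enveloping layer and epidermal structural genes, 30 were matched and 15 tested. In untreated embryos 12 of the 15 rose from 3 to 4 hpf and none fell (12.8% of all genes were called higher), with a median log2 change of 4.41 against 0.00 over all genes tested. The keratin gene krt4 went from 0.961 ± 0.955 CPM to 119.6 ± 63.4 CPM (SD, n = 4), krt8 from 7.36 ± 1.85 to 301.0 ± 179.7 CPM and the calpain gene capn9 from 0.0900 to 16.1 ± 8.68 CPM (edgeR adjusted p = 6.95e-06, 6.95e-06 and 6.58e-06). With actinomycin D, 9 of the 15 were lower than untreated at 4 hpf and none was higher (median -5.90 against 0.02, and 7.12% of all genes lower).

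With oligomycin, 11 of the 15 structural genes were lower than in untreated embryos at 4 hpf and none was higher, where 9.05% of all genes were lower, with a median log2 difference of -2.79 against -0.04 over all genes. Krt4 was at 7.90 ± 9.75 CPM (log2 difference -3.80 ± 0.60, edgeR adjusted p = 0.000180), capn9 at 1.22 ± 1.03 CPM (-3.57 ± 0.56, edgeR adjusted p = 0.000159) and tmsb1, a thymosin gene, at 1.29 ± 1.77 CPM against 50.3 ± 44.2 CPM in untreated embryos (-5.05 ± 0.86, edgeR adjusted p = 0.000351). Capn9 and tmsb1 had few counts with oligomycin, so the limit of the filter given above applies to them. In the second series alone none of the 15 was called. Against actinomycin D, 6 of the 15 were higher with oligomycin (9.79% of all genes), among them krt8 (3.12), krt18a.1 (4.51) and the adhesion gene epcam (0.65), and the cadherin gene cdh1 was lower (-0.33).

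Of 38 names of other epidermal and enveloping layer regulators, 22 were matched and 13 tested. In untreated embryos 7 of the 13 rose and none fell (median 0.94, 12.8% of all genes higher). Those of smallest adjusted p were the AP-2 gene tfap2c (4.26), the Grainyhead-like gene grhl1 (3.34) and the GATA gene gata3 (2.89). With oligomycin at 4 hpf 3 of the 13 were lower than untreated and none was higher (median -0.90, 9.05% of all genes lower): grhl1 (-3.85 ± 0.74, edgeR adjusted p = 0.000854), tfap2c (-2.56 ± 0.59, edgeR adjusted p = 0.00352) and the Krüppel-like gene klf3 (-1.15 ± 0.34, edgeR adjusted p = 0.0174). Grhl1 was at 0.761 ± 0.756 CPM against 12.9 ± 7.20 CPM in untreated embryos and tfap2c at 7.59 ± 8.39 against 47.2 ± 18.3 CPM. The limit of the filter given above applies to grhl1 as well. In the second series alone none of the 13 was called, and 5 were in the first. With actinomycin D at 4 hpf 8 of the 13 were lower than untreated (7.12% of all genes lower), with the smallest adjusted p for klf2a (-5.13), tfap2c (-5.82) and klf2b (-5.83), and tp63 was higher (0.94). Against actinomycin D, oligomycin embryos were higher in 5 of the 13 (9.79% of all genes), among them klf2a (4.23) and klf2b (4.86), and lower in yap1 (-0.35), a cofactor that binds TEAD proteins.

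Of 21 names of BMP pathway genes, 13 were matched and 8 tested. From 3 to 4 hpf 6 of the 8 rose in untreated embryos (12.8% of all genes), with the smallest adjusted p for the ligand gene bmp7a (5.94), the antagonist gene chrd (5.36) and szl, which had no count at 3 hpf and 43.1 ± 17.8 CPM at 4 hpf, and the receptor gene bmpr1ba fell (-0.64). With no count at 3 hpf, szl could not have come out lower at 4 hpf, and the limit of the filter given above applies to it. With oligomycin at 4 hpf 4 of the 8 were lower than untreated (9.05% of all genes), with the smallest adjusted p for szl (-2.98), bmp7a (-2.18) and the signal transducer gene smad5 (-0.50), and bmpr1ba (0.60) and id3 (0.81) were higher, with a median of -1.19. With actinomycin D 5 of the 8 were lower (median -4.30, 7.12% of all genes lower). None of the 8 was called between oligomycin and untreated embryos in the second series alone.

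The maternal regulators upstream of these genes were abundant in every group. Of 11 names, 9 were matched and all 9 tested, none was at 0 in any group, and their summed level lay between 2918 and 5257 CPM in all 24 libraries. In untreated embryos 7 of the 9 rose between the times (median 0.39, 12.8% of all genes higher), and with oligomycin 5 of the 9 were lower at 4 hpf (median -0.35, 9.05% of all genes lower), with the smallest adjusted p for nanog (-0.70), pou5f3 (-0.56) and smad5 (-0.50), the last of which is in the BMP list as well. In actinomycin D, yap1 (0.50), smad5 (0.44) and chuk (0.41) were also called higher at 4 hpf than at 3 hpf. Another gene of the list was called lower there, and the rest were not called. Over all genes, 10.9% were called between these times in actinomycin D. With actinomycin D at 4 hpf, nanog (-0.68, edgeR adjusted p = 0.000372) and pou5f3 (-0.51, edgeR adjusted p = 0.00152) were also lower than untreated. Smad5 was not called there (-0.19, edgeR adjusted p = 0.370). Between oligomycin and actinomycin D at 4 hpf the differences were -0.03 for nanog, -0.05 for pou5f3 and -0.32 for smad5, and none of these was called.

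**Figure D5:**
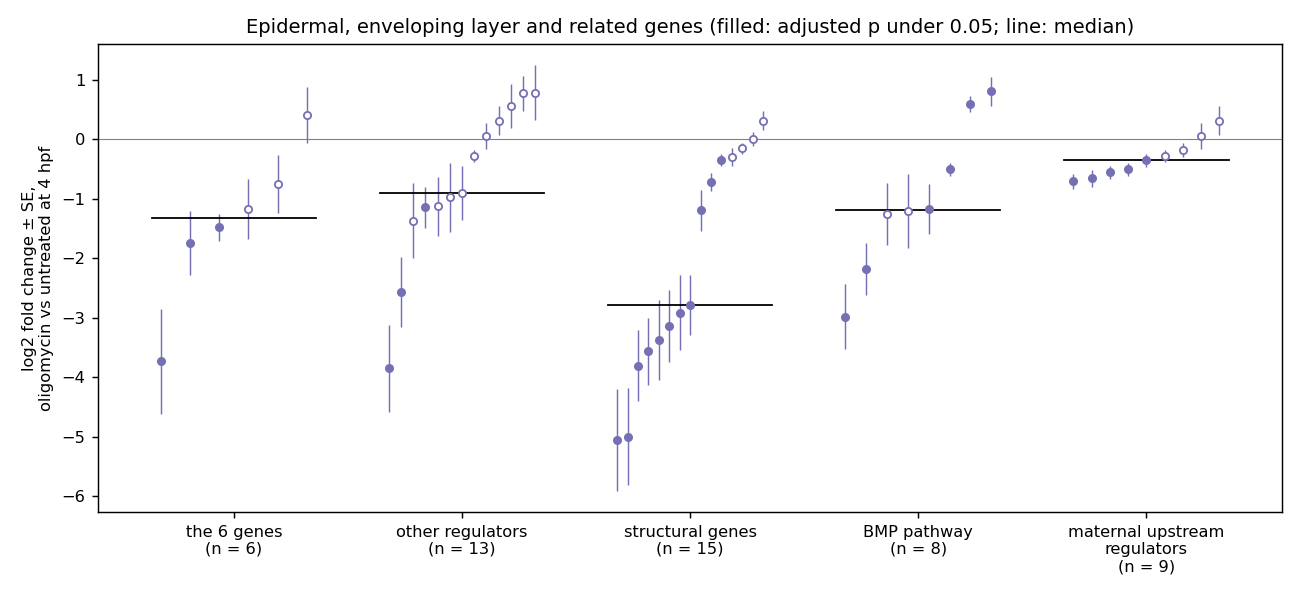
Fitted log2 difference between oligomycin and untreated embryos at 4 hpf with its standard error, for the 6 genes and for the tested genes of the lists of other regulators (n = 13), structural genes (n = 15), BMP pathway genes (n = 8) and maternal upstream regulators (n = 9); filled symbols were called. The structural genes reach from near 0 to -5.05 (median -2.79), and the maternal regulators reach down to -0.70 (median -0.35).

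Markers of other tissues were called in the same comparison as well. With oligomycin, 3 of 9 tested mesendoderm markers, 2 of 3 neural ectoderm markers and 3 of 4 yolk syncytial layer markers were lower than untreated at 4 hpf and none was higher, while 4 of 7 germ plasm markers were higher and none lower. Over all genes in this comparison 9.05% were lower and 21.4% were called in either direction. The summed mesendoderm level was 124 to 832 CPM with oligomycin and 765 to 1847 CPM in untreated libraries, and none of its 10 genes was at 0 in either group. The summed yolk syncytial level was 114 to 241 CPM against 191 to 320.0 CPM, with 2 of 9 genes at 0 in each group, the neural level 35.3 to 285 CPM against 385 to 587 CPM, with 1 and 0 of 4 at 0, and the germ plasm level 2691 to 3573 CPM against 1642 to 2138 CPM, with none of 7 at 0. Their part in the values of the 6 genes was not tested.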

How the data were processed

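Libraries were made with the Lexogen QuantSeq kit, which reads transcripts near the 3′ end, per the labels' protocols. Each library has a file of whole-number read counts per Ensembl gene, deposited without normalization by the authors. Bowtie2 2.3.4.1, Subread 1.6.2 with featureCounts and the build GRCz11 are named in the submitters' processing notes. Strand setting, annotation release and use of molecular identifiers are not given in the sources used here, and counts of overlapping genes are uncertain.

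Counts were fitted with edgeR 4.0.16 in R 4.3.3 (low counts filtered by filterByExpr, TMM, robust quasi-likelihood, prior count 0.125) over all 24 libraries with 1 mean per group. There were 10 pairwise comparisons and 2 interactions of inhibitor and time; p-values were adjusted over 11238 genes by Benjamini and Hochberg's method. CPM uses TMM library sizes. A group without counts was set to 3 counts over the group for a fold, and 1 to 3 counts gave a ratio with an exact 95% counting interval. Log2 CPM for correlations had a prior count of 2. DESeq2 1.42.0 was an alternative. The test was checked on simulated data.

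The 6 genes and the gene lists were chosen with earlier results of these data known. Symbols came from a table pairing 29201 of 32520 identifiers with a name and were matched regardless of capitals. Of each list, at most 3 called genes per direction with the smallest adjusted p were named, as were the 3 genes with the highest r for each of the 6. One gene of 2 lists is counted there and not reported here by name.

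Libraries of the same group differed by more than counting noise (chi-square per gene 3.88 or more). Replicate numbers follow accession order and match sets of 6 adjacent library numbers. Deviations of same-set libraries correlated above 0.1 in 37 of 40 pairs. In 7 of 10 pairwise comparisons every pair did, so the numbers were read as pairing those libraries, but not oligomycin with untreated ones. No main test used the pairing. All calls came from the fit without a block, and results with the replicate block are alternatives. No sequence or coordinate was used here.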

Additional observations from a re-analysis of the deposited data

Results flagged for a closer look

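In 9 of 35 combinations of gene and group, 1 library lay far from the other 3 of its group by Dixon's test. For independent, normally spread values this happens in about 1 of 20. That rate does not hold here, since some flags share 1 library and some rest on 0 or 1 count. Of the 9 flagged, 4 were in actinomycin D at 4 hpf, each in replicate 4: klf17 at 4.91 CPM, grhl3 at 7.37 CPM, irx7 at 4.56 CPM and vgll4l at 10.2 CPM. In oligomycin at 4 hpf, vgll4l in replicate 4 was at 58.5 CPM against at most 11.3 CPM in the other 3. In untreated embryos at 4 hpf, irx7 in replicate 3 was at 121.4 CPM against 70.9 CPM or less. The remaining 3 were in replicate 2 of actinomycin D at 3 hpf and rest on 0 or 1 count: grhl3 at 0.427 CPM, irx7 at 0.427 CPM and foxi1 at 0.0 CPM.

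For ovol1a the effect of both inhibitors differed between 3 and 4 hpf, by the interaction term in edgeR. The difference of effects was -1.41 on the log2 scale for oligomycin (adjusted p = 0.0369) and -2.73 for actinomycin D (adjusted p = 8.77e-05). Neither call was made in the second series alone. The oligomycin call was also lost in some fits with 1 library left out and when only the groups compared were fitted.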

How the results depend on the processing

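Of 2506 alternative values of the 6 genes' fold changes, 2422 kept their direction and side of the threshold, or had no call to lose, 63 lost a call, 21 gained one and none of the called values reversed. The members called from 3 to 4 hpf in untreated embryos numbered 2, and 4 with the replicate block, with only the groups compared and without both set 4 inhibitor libraries at 4 hpf, an alternative chosen after seeing the data; leaving out 1 library gave 2 to 4. In actinomycin D over time, 1 member was called, 4 by DESeq2, 0 in series 1 and 0 to 1 with 1 library left out. For actinomycin D against untreated embryos at 3 hpf, 4 became 1 in series 1 and 0 in series 2, and 3 to 4 with 1 library left out; at 4 hpf the count was 6, and 5 in series 2. For oligomycin against untreated embryos at 4 hpf, 3 became 0 in series 2 and 2 to 4 with 1 library left out. For oligomycin against actinomycin D at 3 hpf, 3 became 0 in each series and 1 to 3 with 1 library left out, and at 4 hpf 5 became 3 in series 2 and 4 to 6. The oligomycin interaction went from 1 to 0 in series 2 and with only the groups compared, and 0 to 1 with 1 library left out; the actinomycin D interaction went from 1 to 0 in series 2. A series alone has 2 libraries per group; the other causes were not tested.

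The set was not read as pairing oligomycin with untreated libraries, since replicates 1 fell short of the threshold at each time while the other 3 pairs passed it. With the replicate block klf17 was called at 4 hpf (-1.36, edgeR adjusted p = 0.0258), and 7 of the 13 other regulators against 3. The block changed no call of the 6 genes beyond those given with the results. Over all genes, oligomycin against untreated embryos at 4 hpf gave 2400 calls, 3743 with the block and 164 in series 2, and the oligomycin interaction 115, 856 with the block, 436 by DESeq2 and 0 in series 2. Counts of foxi1 were low, and 3 of its calls were lost with no filter on low counts.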
